A study of Mus musculus with 20 samples.

Results

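The mouse genes of hepatic triglyceride synthesis described here were chosen by name from the enzymes of the pathway: *Mogat1*, *Gpam*, *Gpat3*, *Gpat4*, *Agpat2*, *Agpat3*, *Lpin1*, *Lpin2*, *Dgat1* and *Dgat2*, which are 10 of the 54532 genes counted in liver RNA. All 10 passed the expression filter (CPM no lower than 2 in 3 or more mice), as did 12289 genes in all. *Mogat1* passed it through the Sham HFD mice alone, so its difference from that group was built into its selection for testing. The mice were male C57BL/6 animals made obese by 12 weeks of high-fat diet (HFD) before they had either Roux-en-Y gastric bypass (RYGB), which reduces the stomach to a small pouch and routes food past the upper small intestine, or a sham operation. For the next 8 weeks they ate chow or HFD, which gave the chow groups Sham Chow and RYGB Chow and the fat-fed groups Sham HFD and RYGB HFD, each with 5 mice and 1 liver library per mouse. All groups, controls included, had thus been obese before surgery. Ages are not given in the sources used here. The study's methods describe Sham HFD mice as heavier than the rest, so body weight and the condition cannot be told apart in any comparison with that group.

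The liver builds triglyceride along the glycerol 3-phosphate pathway: an acyltransferase (GPAT) puts the first fatty acid on glycerol 3-phosphate, a second acyltransferase (AGPAT) turns the product into phosphatidate, a lipin phosphatase removes the phosphate, and a diacylglycerol acyltransferase (DGAT) adds the last fatty acid. A shorter route, best known from the gut, starts from monoacylglycerol and uses a monoacylglycerol acyltransferase (MGAT), the class to which *Mogat1* belongs. Triglyceride made in these ways is stored in lipid droplets or leaves the liver in very-low-density lipoprotein, and its build-up defines fatty liver.

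Expression was measured as read counts per gene, with totals between 14604854 and 22537498 per mouse. Levels are given as CPM, counts per 1000000 of the library total after TMM scaling, and, where genes are compared with each other, as CPM per kilobase of annotated exon. That length is the union of all annotated exons of a gene, so the order of genes and their ratios depend on it. The 6 hepatocyte markers, mostly albumin, were high in every mouse, but their sum was lower in Sham HFD (65926 to 78750 CPM) than in RYGB HFD (92543 to 111820 CPM), with no overlap. It was 76457 to 96739 CPM in Sham Chow and 69393 to 116676 CPM in RYGB Chow. The adipocyte-defining transcripts *Adipoq*, *Lep* and *Retn* held at most 16 counts in any mouse. The other adipocyte markers reached more: *Plin1* 39, *Cfd* 449 and *Cidec* 2365 counts. In whole liver, fewer cells of a type and less RNA per cell cannot be told apart.

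Promoter windows from RefSeq (GRCm38.p6; 250 bases before to 50 after the transcription start) were found for 7 of the 10 members, which have 10 such windows together. Those of *Mogat1*, *Gpam* and *Agpat2* are shown because these were the members called higher in Sham HFD than in Sham Chow. Only the bases before the annotated first exon are printed, 5′ to 3′ on the gene's strand: 181 bases at chr1:78510810-78510990 (plus strand), 250 bases at chr19:55127239-55127488 (minus strand) and 250 bases at chr2:26604418-26604667 (minus strand). Capitals mark matches to any of 6 motifs searched on both strands.
Mogat1: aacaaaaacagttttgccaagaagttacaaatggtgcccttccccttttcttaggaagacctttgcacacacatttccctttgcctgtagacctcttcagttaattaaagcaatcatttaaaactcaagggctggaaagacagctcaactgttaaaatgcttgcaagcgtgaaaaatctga
Gpam: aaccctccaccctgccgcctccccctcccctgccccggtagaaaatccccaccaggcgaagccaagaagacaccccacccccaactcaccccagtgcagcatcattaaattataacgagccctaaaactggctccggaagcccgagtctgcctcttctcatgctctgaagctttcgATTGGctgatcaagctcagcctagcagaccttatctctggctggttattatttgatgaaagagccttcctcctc
Agpat2: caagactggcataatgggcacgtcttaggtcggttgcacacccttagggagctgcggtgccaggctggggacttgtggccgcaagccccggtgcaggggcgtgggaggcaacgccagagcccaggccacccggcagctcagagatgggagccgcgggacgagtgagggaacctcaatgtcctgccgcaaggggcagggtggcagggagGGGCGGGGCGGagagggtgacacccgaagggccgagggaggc

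In the *Gpam* window a CCAAT box (CCAAT, read on the opposite strand) lay at -74 to -70 from the start, and in the *Agpat2* window a pair of overlapping GC boxes (GGGCGG) lay at -42 to -37 and -37 to -32. No motif of the set was found in the printed *Mogat1* stretch. After the start, outside the printed bases, the *Agpat2* window held a further GC box at 25 to 30. The *Mogat1* window held a CCAAT box on the opposite strand at 25 to 29. Among all 32851 RefSeq windows of this length, 37.4% held CCAAT and 35.7% held GGGCGG. The TATA box (TATAAA, in 13.6% of all windows) and the sterol regulatory element (TCACNCCAC, in 1.24%) matched in 0 windows of the members. The nuclear receptor site (AGGTCA, 16.3%) matched in a window of *Gpam* other than the one printed and in one of *Lpin1*, and the E-box (CACGTG, 7.15%) in one of *Lpin2*. Counting all windows of a gene, CCAAT was found for 3 of the 7 genes and GGGCGG for 4. These matches describe letters in a window and were not related to any change.

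Ranked by the median over 20 mice, *Dgat2*, the main enzyme of the last step in liver, stood highest at 206 CPM per kb. *Agpat2* followed at 87.0 and *Agpat3* at 43.5 CPM per kb, and each of these stood above the next gene in 20 of 20 mice. *Lpin2* (30.0), *Gpam* (29.8) and *Gpat4* (29.3 CPM per kb) could not be ordered: *Lpin2* exceeded *Gpam* in 11 mice and *Gpam* exceeded *Gpat4* in 12. Below them came *Lpin1* at 8.90, *Dgat1* at 7.19, *Gpat3* at 3.37 and *Mogat1* at 0.645 CPM per kb. *Lpin1* rose above *Gpat4* in 1 mouse, RYGB HFD replicate 5. *Mogat1*, lowest in 16 mice, stood above *Gpat3* in 4, all of them Sham HFD. Lowest and highest mouse differed 1.39-fold for *Dgat1*, 1.42-fold for *Dgat2*, 5.19-fold for *Gpat3* and 11.4-fold for *Lpin1*.

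**Figure D1:**
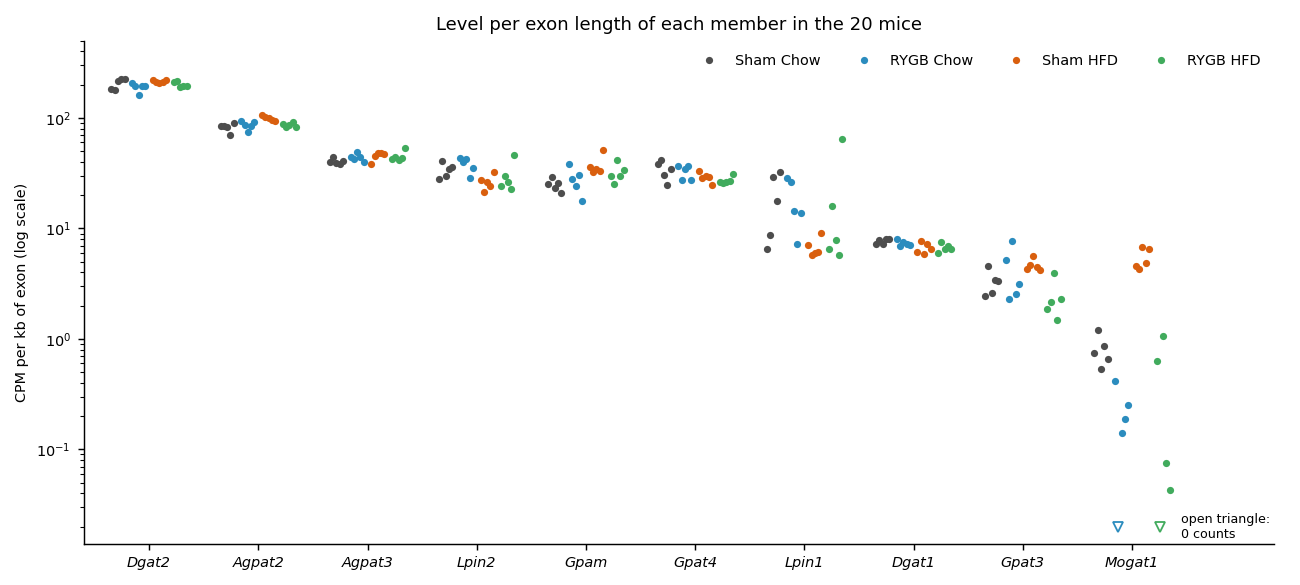
Level of each member in CPM per kb of exon (log scale) in the 20 mice, ordered by the median, with points colored by group and open triangles for mice with 0 counts. *Dgat2* lay between 160 and 227, whereas *Mogat1* ranged from 0 to 6.83 CPM per kb.

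*Mogat1* (ENSMUSG00000012187, GRCm38 chromosome 1 from 78510991 to 78538173), which joins a fatty acid to monoacylglycerol, showed the widest difference between groups. Sham HFD livers held 7.07, 6.66, 10.6, 7.55 and 10.2 CPM. Sham Chow livers held 1.16, 1.86, 0.833, 1.36 and 1.03 CPM. All Sham HFD mice lay above all Sham Chow mice. After RYGB the transcript was near the limit of detection, at 0.654, 0, 0.220, 0.293 and 0.396 CPM on chow (0 to 12 counts) and 0.979, 0, 1.67, 0.118 and 0.0665 CPM on HFD (0 to 29 counts). For the mice with 0 counts, 3 counts would equal 0.162 CPM in RYGB Chow and 0.156 CPM in RYGB HFD. *Mogat1* entered testing only through its Sham HFD level, so the p-values against that group are not independent of its selection. Between the sham groups the log2 fold change with HFD was 2.75 (SE 0.534, 6.74-fold, edgeR quasi-likelihood adjusted p = 0.00116). Sham HFD vs. RYGB HFD gave -3.86 (SE 0.586, 14.6-fold lower, edgeR adjusted p = 1.39e-04). The size of this fold varied: it was 27.6-fold without RYGB HFD replicate 3 (-4.79), 11.6-fold without RYGB HFD replicate 2 (-3.54) and 36.6-fold with limma-voom (-5.19). In Sham Chow vs. RYGB Chow it was -1.98 (SE 0.672, edgeR adjusted p = 0.285), which did not pass, although all RYGB Chow mice lay below all Sham Chow mice (exact permutation test, two-sided p = 0.00794, the smallest that 5 against 5 mice allow). Between RYGB Chow and RYGB HFD the difference was 0.86 (95% interval -0.67 to 2.40), and it was 0.02 with limma-voom. An antisense gene, *BC035947*, shares 200 bases (12.8%) of the *Mogat1* exons and had 0 to 21 counts in a mouse. *Mogat1* had 122 or more counts in Sham HFD, but 17 to 36 in Sham Chow, 0 to 12 in RYGB Chow and 0 to 29 in RYGB HFD. Outside Sham HFD the counts of the 2 genes were thus of similar size. Whether antisense reads were part of the low *Mogat1* counts, and so of its folds, was not tested. The strand setting of the counting is not given in the sources used here.

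Cell-type markers were set beside the *Mogat1* values. Hepatocyte markers moved with the same comparisons: between Sham HFD and RYGB HFD, *Alb* (log2 fold change 0.48), *Apoa1* (0.88) and *Cps1* (0.86) were called higher and *Ttr* (-0.45) lower, and with HFD after sham surgery *Apoa1* (-0.49) and *Cps1* (-1.01) were called lower by edgeR, while *Tat* and *Asgr1* were called in neither. The summed adipocyte list was 36.7 to 112 CPM in Sham HFD, against 6.37 to 68.1 (Sham Chow), 7.92 to 28.0 (RYGB Chow) and 5.50 to 38.5 CPM (RYGB HFD). In Sham HFD most of it was *Cidec*, a lipid droplet protein that fatty hepatocytes also make (29.2 to 109 CPM), whereas *Adipoq* reached at most 0.870 and *Plin1* 2.26 CPM. Between Sham HFD and RYGB HFD *Cidec* was called lower (log2 fold change -2.66, edgeR adjusted p = 0.00245). *Cfd*, at most 24.4 CPM, went the other way without a call (0.74, adjusted p = 0.533). It was called higher in RYGB HFD than in RYGB Chow (4.32, edgeR adjusted p = 0.0139). *Lep* and *Retn* were at 0 in every mouse outside Sham HFD. Of the 4 enterocyte markers, *Vil1*, *Muc2* and *Lct* had at most 6 counts in any mouse, and *Fabp2*, also made in liver, carried the list's sum of 154 to 170 CPM in Sham HFD against 38.3 to 112 in Sham Chow and 65.8 to 132 in RYGB HFD. Stellate cell markers summed to 270 to 323 CPM in Sham HFD, 130 to 208 in Sham Chow, 177 to 237 in RYGB Chow and 179 to 277 in RYGB HFD. With HFD after sham surgery edgeR called all 6 of them higher, among them *Col1a1* (1.94), *Col1a2* (1.69) and *Dcn* (0.68). Between Sham HFD and RYGB HFD *Col1a1* (-2.21), *Col1a2* (-1.52) and *Dcn* (-0.30) were called lower, and *Lrat*, *Des* and *Reln* were not called. The interaction was also called, with negative sign, for *Col1a1*, *Col1a2* and *Dcn* only. The lymphocyte list summed to 17.7 to 22.1 CPM in Sham HFD and stood lower in Sham Chow (median 9.64). Macrophage markers summed to 139 to 204 CPM in Sham HFD, 64.9 to 160 in Sham Chow, 126 to 298 in RYGB Chow and 131 to 232 in RYGB HFD. Endothelial markers (76.8 to 250 CPM), red cell markers (99.0 to 461 CPM), cholangiocyte markers (3.57 to 11.9 CPM) and pancreas markers (10.6 to 29.2 CPM, nearly all *Cela1*) overlapped between Sham HFD and the other groups. The part of these cell types in the differences between groups was not tested.

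The genes whose log2(CPM + 0.5) across the 20 mice was most like that of *Mogat1* were *Perp* (Pearson r = 0.954), a membrane protein induced by p53, *Abhd4* (r = 0.940), a lipase acting on N-acyl phospholipids, and *Rcan2* (r = 0.937), an inhibitor of calcineurin. These coefficients describe 20 mice from 4 groups that differ in level. Sham HFD and RYGB HFD mice had 20.7 ± 4.98 and 3.82 ± 1.54 CPM of *Rcan2* (mean ± SD, n = 5 mice each), and 139.5 ± 4.55 and 98.5 ± 8.44 CPM of *Perp*. Both genes were picked for their likeness to *Mogat1* over these same mice. Their difference between these groups is thus not a result separate from that choice.

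Of the 3 GPAT genes among the members, *Gpam* was higher with HFD after sham surgery, *Gpat3* was lower after RYGB on HFD, and *Gpat4* was called in no comparison. *Gpam* (ENSMUSG00000024978, chromosome 19 from 55067268 to 55127238) encodes GPAT1, the GPAT of the outer mitochondrial membrane. Its CPM was 169, 196, 153, 173 and 140.2 in Sham Chow. Sham HFD mice had 239, 217, 229, 219.6 and 340.0 CPM. The groups did not overlap, and replicate 5 stood above the other Sham HFD mice. The log2 fold change was 0.58 (SE 0.172, 95% interval 0.22 to 0.94, edgeR adjusted p = 0.0203). Without Sham HFD replicate 5 it was 0.44 (edgeR adjusted p = 0.0726) and without Sham Chow replicate 5 it was 0.53 (edgeR adjusted p = 0.0569), so the call rested on either mouse. RYGB mice overlapped with sham mice on each diet, with 258, 187, 162, 205 and 118 CPM in RYGB Chow and 199.6, 168, 276, 198 and 224 CPM in RYGB HFD. Sham HFD vs. RYGB HFD gave -0.22 (95% interval -0.58 to 0.13, edgeR adjusted p = 0.405).

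*Gpat3* (ENSMUSG00000029314, chromosome 5 from 100845713 to 100899102) encodes a GPAT of the endoplasmic reticulum that is prominent in fat tissue. Sham HFD livers had 15.2, 16.4, 19.6, 15.8 and 14.6 CPM. RYGB HFD livers had 6.53, 7.55, 14.0, 5.21 and 7.97 CPM, each below the lowest Sham HFD mouse. The log2 fold change was -0.99 (SE 0.292, 1.98-fold lower, edgeR adjusted p = 0.0237). It stayed between -1.26 and -0.86 when any mouse of these groups was left out. The adjusted p rose above 0.05 without RYGB HFD replicate 1 (edgeR adjusted p = 0.0549), 2 (0.0502) or 4 (0.0671) or without Sham HFD replicate 3 (0.0563). On chow the RYGB mice spread from 7.97 to 27.0 CPM, with 18.1 and 27.0 CPM in replicates 1 and 3, around the Sham Chow range of 8.64 to 15.9 CPM. There the log2 fold change was 0.35 (95% interval -0.25 to 0.95). An antisense transcript, *4930458D05Rik*, covers 30.0% of the *Gpat3* exons and had 3 to 38 counts, while *Gpat3* had 88 to 492.

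*Gpat4* (ENSMUSG00000031545, chromosome 8 from 23171265 to 23208346), the main GPAT of the endoplasmic reticulum in liver, ranged over 165 to 279 CPM (Sham Chow), 184 to 244 (RYGB Chow), 164 to 221 (Sham HFD) and 173 to 206 CPM (RYGB HFD). Its log2 fold changes lay between -0.26 and -0.06 in the 4 pairwise comparisons. The lowest edgeR adjusted p was 0.180, in Sham Chow vs. Sham HFD, and all groups overlapped. Without Sham Chow replicate 4 that difference was -0.33 and was called (edgeR adjusted p = 0.0422).

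*Agpat2* (ENSMUSG00000026922, chromosome 2 from 26593057 to 26604417), whose loss causes congenital lipodystrophy in humans, had a small difference and a narrow spread. Its CPM was 181, 179, 176, 150.1 and 191 in Sham Chow. In Sham HFD it was 225, 217, 214, 204 and 202 CPM. RYGB HFD mice had 187, 176, 184, 196 and 178 CPM, close to the 159 to 200.2 CPM of RYGB Chow. Every Sham HFD mouse thus lay above every mouse of each other group. HFD after sham surgery gave a log2 fold change of 0.28 (SE 0.0728, 1.21-fold, edgeR adjusted p = 0.0108). This call was kept by each alternative and without each mouse of the sham groups. Against RYGB HFD the difference was -0.20 (SE 0.0728, edgeR adjusted p = 0.0591; exact permutation p = 0.00794), which missed the threshold here and passed it with DESeq2 (adjusted p = 0.0251), with a filter of CPM of at least 5 (0.0355), with library size only (0.00354) and with these groups alone in the model (0.0190). With DESeq2 the value was -0.21. The exact p is unadjusted and is the smallest that 5 against 5 mice allow, which the lack of overlap fixes. *Egfl7*, on the opposite strand, shares 64 bases (3.00%) of the exons and had 261 to 512 counts, against 2102 to 5073 for *Agpat2*.

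*Agpat3* (ENSMUSG00000001211, chromosome 10 from 78269178 to 78352489), which prefers polyunsaturated acyl groups, was called in no comparison. Sham mice had 301 to 347 CPM with chow and 296 to 374 with HFD, RYGB mice 313 to 384 and 326 to 417 CPM. In Sham Chow vs. Sham HFD the log2 fold change was 0.17 (edgeR adjusted p = 0.151). Without Sham HFD replicate 1, whose 296 CPM lay below the other 4 mice (355 to 374), it was 0.23 (edgeR adjusted p = 0.0496), and with library size only it was 0.29 (adjusted p = 0.0377).

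Among the lipins, *Lpin1* varied most between mice of the same group. *Lpin1* (ENSMUSG00000020593, chromosome 12 from 16535669 to 16610966) encodes lipin 1, a phosphatidate phosphatase that also acts as a transcriptional coactivator. Its CPM was 63.3, 84.3, 281, 171 and 312 in Sham Chow and 276, 257, 139, 70.6 and 134 in RYGB Chow. Sham HFD mice kept to 68.8, 56.1, 58.1, 58.6 and 87.7 CPM. RYGB HFD mice had 63.0, 153, 75.2, 55.0 and 628 CPM, with replicate 5 above every other mouse in the study. The SD within groups was 0.98 on the log2 scale, larger than that of 99.5% of tested genes (median 0.205), but 0.27 within Sham HFD. Neither diet nor surgery difference passed. Sham Chow vs. Sham HFD gave -1.47 (SE 0.581, edgeR adjusted p = 0.0755, exact permutation p = 0.0397), and Sham HFD vs. RYGB HFD gave 1.56 (SE 0.583, edgeR adjusted p = 0.0713, exact permutation p = 0.238). The latter was 0.40 (edgeR adjusted p = 0.589) without RYGB HFD replicate 5, and it passed without RYGB HFD replicate 1 (1.79, 0.0426), 3 (1.77, 0.0498) or 4 (1.80, 0.0432). Sham Chow vs. Sham HFD gave -1.69 without Sham Chow replicate 1 (edgeR adjusted p = 0.0465).

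*Lpin2* (ENSMUSG00000024052, chromosome 17 from 71182560 to 71249817), the more abundant lipin in these livers, averaged 416 ± 62.8 CPM (Sham Chow), 464 ± 75.3 (RYGB Chow), 323 ± 50.4 (Sham HFD) and 367 ± 118 CPM (RYGB HFD; mean ± SD, n = 5 mice each). The diet difference was -0.36 after sham surgery (log2 scale, SE 0.169, edgeR adjusted p = 0.126) and -0.34 after RYGB (SE 0.169, edgeR adjusted p = 0.290). RYGB HFD replicate 5 was again the highest mouse, at 569 CPM, and without it the latter was -0.55 (edgeR adjusted p = 0.0318).

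The same RYGB HFD mouse was also the highest of its group for *Agpat3* (417 CPM) and *Gpat4* (206 CPM), whereas RYGB HFD replicate 3 was the highest for *Mogat1*, *Gpam* and *Gpat3*.

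Neither DGAT gene was called in any comparison. *Dgat2* (ENSMUSG00000030747, chromosome 7 from 99153658 to 99182719) averaged 633 ± 71.6 CPM (Sham Chow), 587 ± 55.5 (RYGB Chow), 657 ± 21.5 (Sham HFD) and 621 ± 35.3 CPM (RYGB HFD; mean ± SD, n = 5 mice each). Its 95% intervals on the log2 scale were -0.11 to 0.22 in Sham Chow vs. Sham HFD and -0.25 to 0.09 in Sham HFD vs. RYGB HFD. *Dgat1* (ENSMUSG00000022555, chromosome 15 from 76502015 to 76511953), the DGAT shared by many tissues, stood at 23.5 ± 1.19, 22.5 ± 1.46, 20.4 ± 2.40 and 20.5 ± 1.75 CPM in the same order. With HFD after sham surgery its difference was -0.20 on the log2 scale (95% interval -0.38 to -0.03, edgeR adjusted p = 0.0824), and -0.26 without Sham HFD replicate 2 (edgeR adjusted p = 0.0352). Comparing RYGB HFD with Sham HFD, the *Dgat1* difference was 0.01 (95% interval -0.17 to 0.18).

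Across the members, HFD after sham surgery was the comparison with the most calls. In Sham Chow vs. Sham HFD, *Mogat1*, *Gpam* and *Agpat2* rose and 0 of 10 fell, where 10.9% of tested genes were called higher and 10.7% lower. The groups did not overlap for these 3 members, as for 16.5% of tested genes. The median log2 fold change of the 10 members was 0.11, that of all tested genes -0.005. With only these groups in the model, *Gpat3* (higher), *Lpin1* and *Lpin2* (both lower) were called too, 6 members in all, where that model called 12.0% of tested genes higher and 11.1% lower.

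In Sham HFD vs. RYGB HFD, *Mogat1* and *Gpat3* fell and 0 of 10 rose, where 7.9% of tested genes were called lower and 8.54% higher. *Mogat1*, *Gpat3* and *Agpat2* did not overlap between these groups, as 14.7% of tested genes. The median of the members was -0.09, that of all tested genes 0.01. Sham HFD is shared by both comparisons, so the opposite signs of *Mogat1* in them are not independent of each other. *Mogat1* also entered testing only through Sham HFD, which limits its calls and its lack of overlap in both comparisons.

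In Sham Chow vs. RYGB Chow, edgeR called 0 of 10 members, and DESeq2 and limma-voom also called 0. At an unadjusted p under 0.05 there was 1, *Mogat1*, close to the 10.8% of all tested genes under that limit. It was also the 1 member without overlap (1.33% of tested genes). The background was 0.0488% of tested genes higher and 0.00814% lower. In RYGB Chow vs. RYGB HFD, 0 members were called by edgeR, DESeq2 or limma-voom and 2 had an unadjusted p under 0.05 (*Gpat3* at -0.82 and *Gpat4* at -0.26), as did 18.8% of all tested genes, with 1.99% of tested genes called higher, 1.65% lower and 5.05% without overlap. In that comparison no member was without overlap.

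The surgery by diet interaction asked whether the diet difference was the same after RYGB as after sham surgery. No member passed with edgeR (background 2.48% higher, 2.58% lower), and 2 had an unadjusted p under 0.05, as did 20.8% of all tested genes. *Gpat3* came nearest, with -1.34 (SE 0.409, edgeR adjusted p = 0.0621), made up of 0.51 after sham surgery and -0.82 after RYGB. DESeq2 called it (adjusted p = 0.0173), limma-voom did not (adjusted p = 0.0656), and it passed without RYGB Chow replicate 2, RYGB Chow replicate 4, RYGB HFD replicate 3 or Sham Chow replicate 2, each left out alone (edgeR adjusted p = 0.0302, 0.0420, 0.0217 and 0.0390). *Agpat2* was the other, with -0.27 (SE 0.103, edgeR adjusted p = 0.132). For *Mogat1* the interaction was -1.89 (95% interval -3.83 to 0.06, edgeR adjusted p = 0.254), so the diet difference in *Mogat1* was not shown to differ between surgeries.

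The balance of calls over all genes moved with the scaling. With library size in place of TMM, the split of genes called higher and lower went from 1337 and 1319 to 2279 and 554 in Sham Chow vs. Sham HFD, from 1050 and 971 to 542 and 1497 in Sham HFD vs. RYGB HFD, and from 305 and 317 to 151 and 597 in the interaction, with shifts of the median gene to 0.12, -0.08 and -0.13 on the log2 scale. The members called under TMM kept their direction and call under library size, which added *Agpat3* (higher) in Sham Chow vs. Sham HFD, *Agpat2* (lower) in Sham HFD vs. RYGB HFD, and *Gpat3* and *Agpat2* (both negative) in the interaction.

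**Figure D2:**
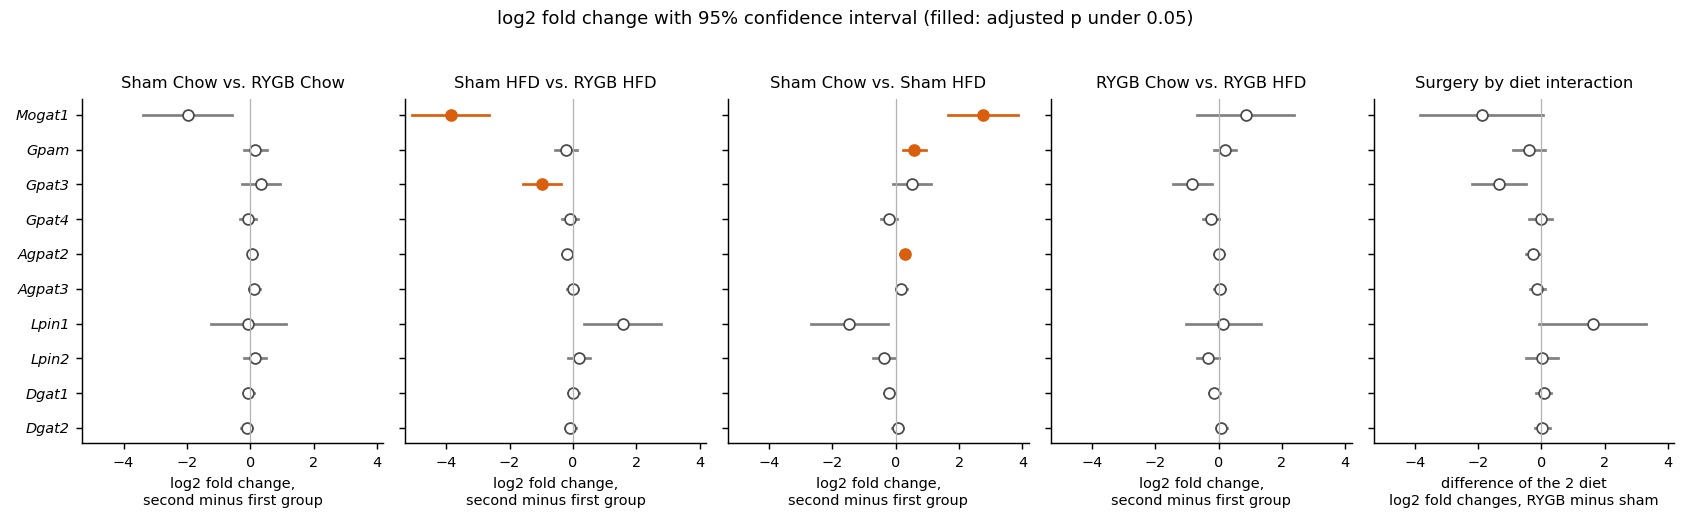
log2 fold change (second minus first group) of each member with its 95% confidence interval in the 4 pairwise comparisons, and the interaction at the right. Filled points passed an edgeR adjusted p under 0.05: *Mogat1* (-3.86) and *Gpat3* (-0.99) in Sham HFD vs. RYGB HFD, and *Mogat1* (2.75), *Gpam* (0.58) and *Agpat2* (0.28) in Sham Chow vs. Sham HFD.

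Ratios between members, formed within each mouse on the CPM per kb scale, are given as descriptions without a test. The *Gpam* to *Gpat4* ratio was 0.608 to 1.05 in Sham Chow (median 0.703) and 1.08 to 2.08 in Sham HFD (median 1.14). At these exon lengths *Gpam* was the lower of this pair in most Sham Chow mice and the higher in all Sham HFD mice. The ratio was 0.640 to 1.06 in RYGB Chow and 0.971 to 1.59 in RYGB HFD. As a part of the sum of the 3 GPAT genes among the members, *Gpat3* made up 5.24% to 8.04% in Sham HFD and 2.57% to 5.57% in RYGB HFD. *Mogat1* to *Gpam*, the MGAT route set against the GPAT1 step, was 0.127 to 0.199 in Sham HFD, 0.0232 to 0.0407 in Sham Chow, 0 to 0.0144 in RYGB Chow and 0 to 0.0259 in RYGB HFD. As *Mogat1* entered testing through its Sham HFD level, this ratio is not a result separate from that level. The *Dgat2* to *Dgat1* ratio ran from 21.2 to 35.8 over all mice, and its medians were 27.8 (Sham Chow), 27.3 (RYGB Chow), 33.8 (Sham HFD) and 29.0 (RYGB HFD), with overlap between every pair of groups. *Agpat2* to *Agpat3* stayed between 1.52 and 2.79. *Lpin1* to *Lpin2* was 0.227 to 0.279 in Sham HFD, but 0.213 to 0.972 in Sham Chow and 0.251 to 1.40 in RYGB HFD, where replicate 5 alone exceeded 1.

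**Figure D3:**
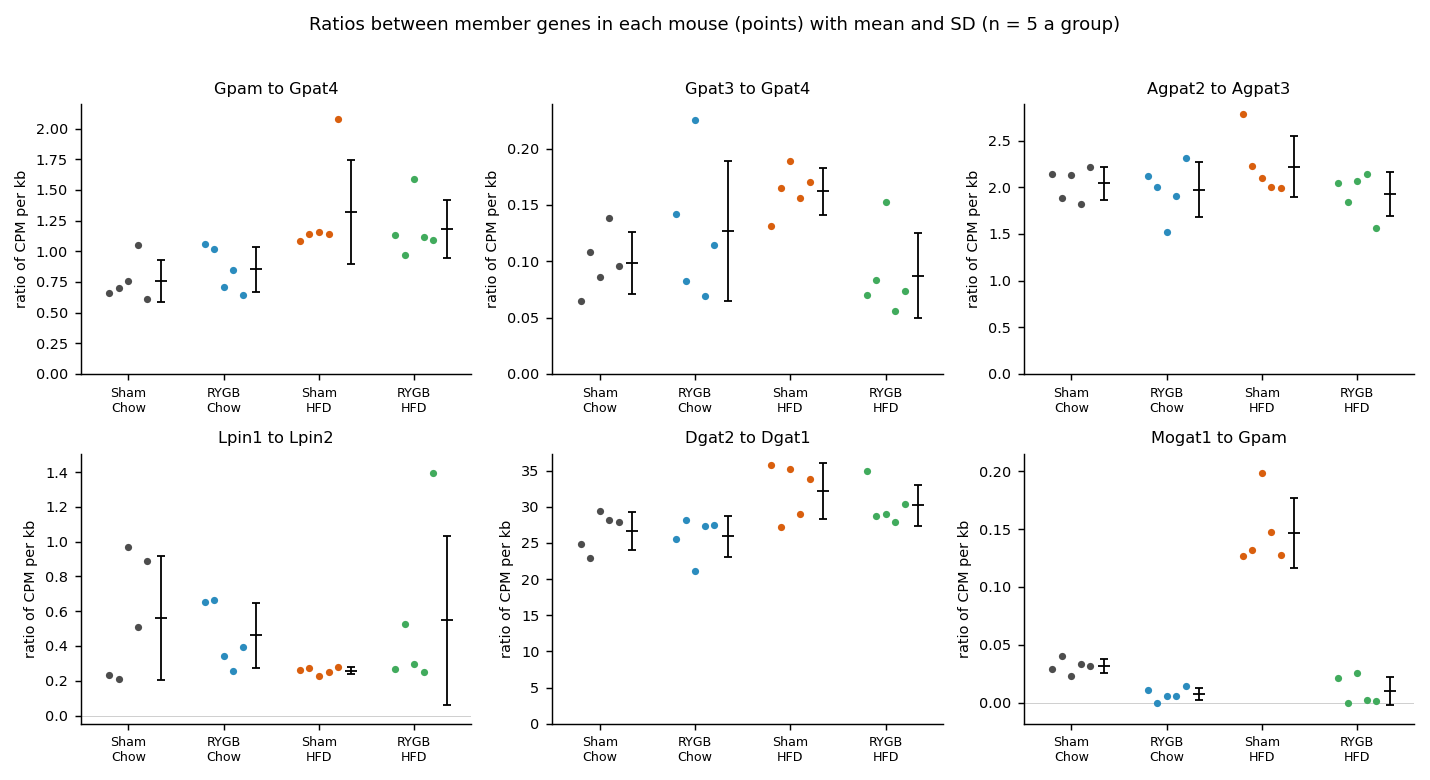
Ratio of CPM per kb between 2 members in each mouse (points) by group, with the mean and SD (n = 5 mice). *Mogat1* to *Gpam* was at least 0.127 in Sham HFD, the group through which *Mogat1* entered testing, and at most 0.0407 in every other mouse.

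Other genes of the pathway were taken from 5 lists. As background for their calls, 10.9% of all tested genes were called higher and 10.7% lower in Sham Chow vs. Sham HFD. These shares were 8.54% and 7.9% in Sham HFD vs. RYGB HFD, 1.99% and 1.65% in RYGB Chow vs. RYGB HFD, and 2.48% and 2.58% in the interaction. In Sham Chow vs. RYGB Chow edgeR called 0 genes of any list, and 4 of the 39 tested had an unadjusted p under 0.05, against 10.8% of all tested genes. Among the 4 genes that supply glycerol 3-phosphate, *Gk*, the glycerol kinase, rose in Sham Chow vs. Sham HFD (log2 fold change 0.39, SE 0.104, edgeR adjusted p = 0.0120) and no other was called in any comparison. Of 7 tested genes for the same steps outside the members, *Gpat2*, a GPAT best known from testis, rose in the same comparison from 2.69 to 4.28 CPM (log2 fold change 0.67, edgeR adjusted p = 0.0206), and so did *Agpat1* (0.32, adjusted p = 0.0438). Leaving out 1 mouse at a time kept the *Gpat2* call in 6 of 10 fits (edgeR adjusted p up to 0.0581) and the *Agpat1* call in 4 of 10 (up to 0.106), and the latter was also kept in only 5 of 8 alternatives with all mice (up to 0.139). The medians of these lists were 0.18 and 0.30 in Sham Chow vs. Sham HFD, against -0.005 over all tested genes. Those of the lists described next were -0.002 (use of phosphatidate or diacylglycerol for phospholipids), 0.0005 (triglyceride hydrolysis) and 0.11 (transcriptional regulators).

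Of 9 tested genes that draw phosphatidate or diacylglycerol into phospholipids, *Chpt1*, which makes phosphatidylcholine from diacylglycerol, and *Pcyt1a*, the rate-limiting enzyme of the same route, rose with HFD after sham surgery and fell in Sham HFD vs. RYGB HFD. *Chpt1* averaged 309.7 ± 48.0 CPM (Sham Chow), 247 ± 28.8 (RYGB Chow), 403 ± 29.2 (Sham HFD) and 214 ± 21.9 CPM (RYGB HFD; mean ± SD, n = 5 mice each), with log2 fold changes of 0.38 (edgeR adjusted p = 0.0127) and -0.91 (adjusted p = 9.09e-06) and an interaction of -0.58 (adjusted p = 0.0244). For *Pcyt1a* the log2 fold changes were 0.29 (edgeR adjusted p = 0.0134) and -0.31 (adjusted p = 0.0119). The other 7 genes of the list were not called. Both comparisons share Sham HFD, so the opposite signs of *Chpt1* and *Pcyt1a* in them are not independent.

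Triglyceride hydrolysis was represented by 7 tested genes. *Pnpla2*, which encodes adipose triglyceride lipase, fell in Sham Chow vs. Sham HFD from 132 ± 20.8 to 90.6 ± 5.92 CPM (mean ± SD, n = 5 mice each; log2 fold change -0.54, edgeR adjusted p = 0.00472), and so did *Aadac*, a lipase of the endoplasmic reticulum (-0.33, adjusted p = 0.0374). The *Aadac* call was lost with library size only (-0.20, edgeR adjusted p = 0.114) and with no filter, and was kept in 2 of 10 fits that left out 1 mouse (adjusted p up to 0.0797). *Ces1d*, a carboxylesterase that mobilizes stored triglyceride, was lower in RYGB HFD (299 ± 71.5 CPM) than in Sham HFD (513 ± 71.7) or RYGB Chow (621 ± 77.0), with log2 fold changes of -0.78 (edgeR adjusted p = 0.00537) and -1.06 (adjusted p = 0.00242).

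Among 12 transcriptional regulators of lipid synthesis, *Srebf1*, the activator of fatty acid synthesis genes, rose with HFD after sham surgery (log2 fold change 0.93, edgeR adjusted p = 0.00321) and after RYGB (0.80, adjusted p = 0.0342). The latter call was kept in 5 of 8 alternatives with all mice (adjusted p up to 0.107) and in 3 of 10 fits that left out 1 mouse (edgeR adjusted p up to 0.109). *Pparg*, the nuclear receptor that drives fat storage genes, stood at 22.2 ± 1.96 CPM in Sham HFD against 14.5 ± 3.40 in Sham Chow and 14.4 ± 3.11 in RYGB HFD (mean ± SD, n = 5 mice each), with log2 fold changes of 0.62 (edgeR adjusted p = 0.00571) and -0.61 (adjusted p = 0.00657). Conversely, *Mlxipl*, which encodes the carbohydrate-responsive factor ChREBP, and *Scap*, the escort of the SREBP proteins, were lower in Sham HFD than in Sham Chow (-0.32 and -0.33, edgeR adjusted p = 0.0240 and 0.00940) and higher in RYGB HFD than in Sham HFD (0.46 and 0.64, adjusted p = 0.00258 and 3.86e-05). Both decreases in Sham HFD lost their call with library size only (-0.19 and -0.20, edgeR adjusted p = 0.210 and 0.0648), and that of *Mlxipl* was kept in 7 of 10 fits that left out 1 mouse (adjusted p up to 0.0688). *Scap* was the only gene of the 5 lists other than *Chpt1* called in the interaction (0.66, edgeR adjusted p = 0.00388), and it was also higher in RYGB HFD than in RYGB Chow (0.33, adjusted p = 0.0362), a call kept in 5 of 8 alternatives with all mice (up to 0.110) and in 1 of 10 fits that left out 1 mouse (up to 0.0802). *Foxo1* was higher in RYGB HFD than in Sham HFD (0.42, edgeR adjusted p = 0.0254), a call kept in 6 of 10 such fits (up to 0.0879) and lost with library size only (0.32, adjusted p = 0.110). Comparisons of Sham HFD with Sham Chow and with RYGB HFD share a group. The opposite signs of *Pparg*, *Mlxipl* and *Scap* in them are thus not independent.

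**Figure D4:**
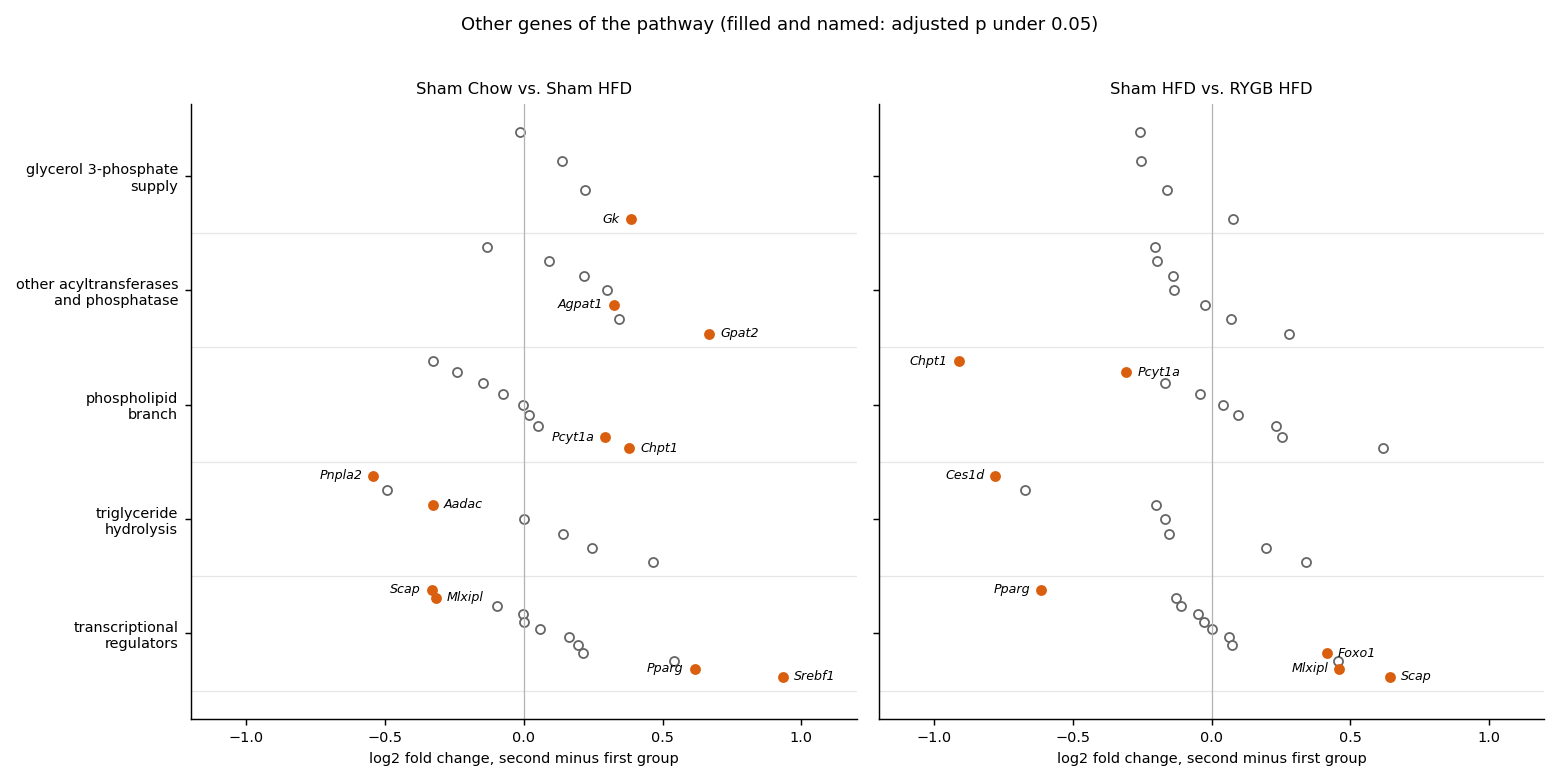
log2 fold change of each tested gene of the 5 lists in Sham Chow vs. Sham HFD (left) and Sham HFD vs. RYGB HFD (right). Filled, named points passed an edgeR adjusted p under 0.05, such as *Srebf1* at 0.93 on the left and *Chpt1* at -0.91 on the right.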

How the data were processed

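The authors sequenced poly(A) RNA from 20 livers as strand-specific paired-end libraries, trimmed reads with Trimmomatic (0.36), aligned them to mm10 with HISAT2 (2.1.0) and deposited raw read counts per gene from featureCounts (1.5.0-p3). The strand setting, annotation release and handling of multi-mapped reads are not given in the sources used here. Groups came from the labels, and no 2 columns were identical. Nothing ties replicates beyond 1 liver per mouse.

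From the counts, genes reaching a CPM of 2 in 3 or more mice were kept (12289 of 54532), scaled by TMM and fitted over all 20 mice with edgeR (4.0.16, R 4.3.3; quasi-likelihood, a mean per group), with Benjamini-Hochberg adjustment over all tested genes and a threshold of 0.05. Exact two-sided permutation tests used log2(CPM + 0.5). The script was tested on simulated data. Symbols, positions and union exon lengths came from GENCODE M21 (GRCm38), promoters from RefSeq. All 10 members were named, and list genes only where called in a comparison; of the genes most like a member, those of *Mogat1*, the member with the most calls, were named. Members and gene lists were chosen with earlier results of these data known. Total counts (median 19056997) limit precision for *Mogat1* most; floors of 3 counts cover counting error only.

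Alternatives were other tools (DESeq2 1.42.0, limma-voom 3.58.1), other scaling (RLE, library size), other filters (none, a CPM of 5), a replicate block, a model of only the groups compared and the omission of each mouse of the groups compared. Refits of the list genes called in a comparison were added after seeing the data.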

Additional observations from a re-analysis of the deposited data

Results flagged for a closer look

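Within groups of 5 mice, 40 sets of member values were screened with Dixon's criterion (critical value 0.71), which chance exceeds in about 1 of 20 sets, and 6 exceeded it. RYGB HFD replicate 5 stood above its group for *Lpin1* (628 CPM), *Agpat3* (417 CPM) and *Gpat4* (206 CPM). Sham HFD replicate 5 was high for *Gpam* (340.0 CPM), Sham HFD replicate 1 was low for *Agpat3* (296 CPM), and RYGB Chow replicate 3 was low for *Dgat2* (492 CPM).

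The diet difference differed between RYGB and sham surgery, by the edgeR interaction term, for *Chpt1* (-0.58, adjusted p = 0.0244) and for *Scap* (0.66, adjusted p = 0.00388). Over all tested genes the interaction called 2.48% higher and 2.58% lower, and the share of list genes called was near that background. For *Chpt1*, HFD minus chow was 0.38 after sham surgery and -0.21 after RYGB (the latter not called, edgeR adjusted p = 0.292). For *Scap* it was -0.33 after sham surgery and 0.33 after RYGB. The latter call was kept in 1 of 10 fits that left out 1 mouse.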

How the results depend on the processing

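The calls of *Mogat1* and *Agpat2* with HFD after sham surgery and of *Mogat1* in Sham HFD vs. RYGB HFD were kept in every alternative and without each mouse of the groups compared. Those of *Gpam* and *Gpat3* were kept in every alternative that kept all mice. The calls of *Mogat1* are against Sham HFD, the group through which it entered testing. Leaving out 1 mouse gave 2 to 4 called members in Sham Chow vs. Sham HFD, 1 to 3 in Sham HFD vs. RYGB HFD, 0 to 1 in RYGB Chow vs. RYGB HFD, 0 to 1 for the interaction and 0 in Sham Chow vs. RYGB Chow. Those fits called 2009 to 2648, 1534 to 1922, 244 to 428, 377 to 805 and 0 to 15 of all genes, in that order. With all mice these were 2656, 2021, 448, 622 and 7. With only the groups compared, 6 members were called between the sham groups, and for the interaction DESeq2 called 1, no filter 1 and library size only 2. Over all genes, Sham Chow vs. RYGB Chow had 6 higher and 1 lower calls, with 66 and 26 by DESeq2, 2 and 1 by limma-voom, 10 and 3 without a filter and 0 with only these groups. RYGB Chow vs. RYGB HFD went from 245 and 203 to 399 and 352 by DESeq2 and to 94 and 90 with only these groups, and the interaction from 305 and 317 to 439 and 493 by DESeq2. Without 1 mouse, all calls (both directions) in Sham Chow vs. RYGB Chow went from 7 to between 0 (without Sham Chow replicate 3 or 4) and 15 (without RYGB Chow replicate 5), and differed by over 1.5 times also without Sham Chow replicate 1 (1), 2 (14) or 5 (1) or RYGB Chow replicate 1 (4) or 2 (12). Those in RYGB Chow vs. RYGB HFD went from 448 to 261, 244 and 264 without RYGB HFD replicate 1, 3 or 4, and those of the interaction from 622 to 404, 377 and 399 without Sham Chow replicate 5, Sham HFD replicate 3 or Sham HFD replicate 5. The replicate numbers did not pair the mice (same-number correlations -0.257 to 0.165, other pairs -0.268 to 0.362), and the fit with the replicate block called the same members.

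No called member reversed. Signs turned only for differences that were not called. For *Agpat2* in RYGB Chow vs. RYGB HFD the value was -0.00302 (library size), -0.00361 (the mean difference of the permutation test at that scaling) and -0.00945 (no filter). For *Dgat1* in Sham HFD vs. RYGB HFD it was -0.000599 (DESeq2), -0.00157 (RLE), -0.0116 (CPM of 5), -0.0867 (library size), -0.0820 (permutation test at that scaling), -0.00187 (no filter) and -0.00249 (only these groups). Library size alone turned the interaction of *Dgat1* (-0.0729), *Dgat2* (-0.109) and *Lpin2* (-0.120), the last also with limma-voom (-0.00419) and the replicate block (-0.00248). *Lpin1* turned with limma-voom and the replicate block in RYGB Chow vs. RYGB HFD (-0.381 and -0.383) and in Sham Chow vs. RYGB Chow (0.0442 and 0.0767). Without 1 mouse, signs turned within -0.0466 to 0.0367 (*Agpat2*), -0.0307 to 0.0763 (*Agpat3*), -1.02 to 0.389 (*Lpin1*) and -0.0571 to 1.31 (*Mogat1*) between the RYGB groups. In Sham HFD vs. RYGB HFD the ranges were -0.0731 to 0.0218 (*Agpat3*), -0.0483 to 0.0621 (*Dgat1*) and -0.0289 to 0.270 (*Lpin2*). For the interaction they were -0.0373 to 0.0720 (*Dgat2*), -0.112 to 0.0670 (*Gpat4*) and -0.187 to 0.112 (*Lpin2*), and in Sham Chow vs. RYGB Chow -0.161 to 0.0222 (*Gpat4*) and -0.279 to 0.225 (*Lpin1*). The cause was not tested for any of these.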
